A study of Homo sapiens with 12 samples.

Results

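The 10 genes described here were followed through knockdown of MYCN and HAND2 in IMR32, an established human line of neuroblastoma, a childhood tumour of the neural crest, in which MYCN is amplified. They are 9 markers and regulators of the mesenchymal neuroblastoma state (PRRX1, SNAI2, TWIST1, YAP1, WWTR1, VIM, FN1, CD44 and NOTCH2) and AHNAK, found by symbol among the 27514 genes of the deposited table, which holds all 10. The 9 were chosen as known markers and regulators of that state, but with earlier results of these data known. AHNAK was selected on its measured levels after the separate knockdowns, which moved in opposite directions, so its values there are described without a test. Small interfering RNA was brought into the cells by electroporation and the cells were grown for 72 h in RPMI-1640 with serum. There were 4 groups of 3 samples, given a control siRNA (siCTR), an siRNA against MYCN (siMYCN_2, here siMYCN), an siRNA against HAND2 (siHAND2_3, here siHAND2), or both together (the double knockdown). The labels name 1 siRNA per target, so other effects of that siRNA cannot be told apart from those of losing its target.

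Neuroblastoma cells occur in an adrenergic state, held by a circuit of neural crest transcription factors to which HAND2 and GATA3 belong, and in a mesenchymal state that resembles migratory neural crest cells. The mesenchymal state is known for transcription factors such as PRRX1, for Notch and YAP signalling, and for proteins of the cytoskeleton and the matrix. IMR32 is regarded as an adrenergic line.

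RNA was sequenced in bulk, and levels are in CPM, that is, reads scaled to the size of the library. Estimated depth was 31.6 to 64.2 megareads per sample. The share of reads in the listed genes was 65.1% ± 0.74 (SD, n = 3) in siCTR, 62.4% ± 0.98 in siMYCN, 59.4% ± 2.39 in siHAND2 and 51.4% ± 7.04 in the double knockdown. Many changes against siCTR are therefore also given after rescaling each sample by its median ratio to the average sample. A change without a rescaled value beside it is as deposited and was not set against the shift of all genes. The median log2 fold change against siCTR of all genes tested stood at 0.0056 for siMYCN, −0.14 for siHAND2 and −0.28 for the double knockdown as deposited, and 0.014, 0.013 and 0.047 after rescaling. MYCN stood at 67.5% of its siCTR level with siMYCN, 84.1% with siHAND2 and 47.7% with both siRNAs (68.0%, 93.9% and 61.0% after rescaling). HAND2 stood at 26.0% with siHAND2 and 30.7% with both (29.1% and 39.2% after rescaling). The MYCN siRNA alone left HAND2 higher, at 136% of siCTR (log2 change 0.44, limma adjusted p 0.0062, called on both scales). An antisense gene overlaps each target, MYCNOS and HAND2-AS1, and whether reads were counted by strand is not given in the sources used here.

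The 8 markers of noradrenergic cells summed to 542 to 568 CPM in siCTR, 714 to 741 in siMYCN, 649 to 702 in siHAND2 and 502 to 780 in the double knockdown. Single markers moved in different directions. PHOX2A averaged 68.5, 115, 16.0 and 27.1 CPM in the same order, and ISL1 21.3, 31.0, 47.2 and 64.2. CHGA, the gene for the granule protein chromogranin A, averaged 99.5 CPM in siCTR, 128 in siMYCN, 171 in siHAND2 and 129 in the double knockdown. The transcription factor gene GATA3 averaged 32.7, 46.0, 28.2 and 31.0 CPM in the same order, and DBH, which encodes the enzyme that makes noradrenaline, 2.65, 7.99, 0.929 and 0.942. TH, the rate-limiting enzyme of catecholamine synthesis, averaged 0.120 CPM in siCTR, 0.350 in siMYCN, 1.07 in siHAND2 and 1.58 in the double knockdown. The 8 fibroblast markers summed to 129 to 138 CPM in siCTR, 166 to 177 in siMYCN, 65.9 to 78.6 in siHAND2 and 39.0 to 60.9 in the double knockdown. PDGFRA supplied 104 CPM of the siCTR sum, and DCN, which defines fibroblasts, was at or under 3 estimated reads in every sample. The 5 Schwann cell markers summed to 1.79 to 1.87 CPM in siCTR, 2.88 to 3.61 in siMYCN, 2.25 to 2.55 in siHAND2 and 2.80 to 3.54 in the double knockdown. The 5 epithelial markers summed to at most 0.415 CPM in any sample, with CDH1, KRT18 and KRT19 at or under 3 reads throughout, and the 4 blood markers to at most 0.985. The 4 endothelial markers summed to 0.551 to 0.776 CPM in siCTR, 2.05 to 2.82 in siMYCN, 0.887 to 1.45 in siHAND2 and 1.19 to 1.92 in the double knockdown, with PECAM1 and TEK at or under 3 reads in every sample. The fibroblast sum moved in the same direction as several results below, and its part in them was not tested.

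The stretch before the transcription start is shown for YAP1, which was low after every knockdown, and for AHNAK, which was high after one and low after the other. Each is the 250 bases before the start in RefSeq's annotation of GRCh38.p14, at chr11:102110197-102110446 on the plus strand for YAP1 and chr11:62545827-62546076 on the minus strand for AHNAK, written 5′ to 3′. Capitals mark CANNTG, the E-box core bound by basic helix-loop-helix proteins such as MYCN, HAND2 and TWIST1, and GGAATG, a core bound by TEAD factors.
YAP1: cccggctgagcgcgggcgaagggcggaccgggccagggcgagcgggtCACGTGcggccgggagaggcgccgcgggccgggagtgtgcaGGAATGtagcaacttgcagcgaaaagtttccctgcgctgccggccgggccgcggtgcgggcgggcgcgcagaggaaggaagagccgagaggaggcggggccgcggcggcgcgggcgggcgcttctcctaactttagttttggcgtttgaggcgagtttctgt
AHNAK: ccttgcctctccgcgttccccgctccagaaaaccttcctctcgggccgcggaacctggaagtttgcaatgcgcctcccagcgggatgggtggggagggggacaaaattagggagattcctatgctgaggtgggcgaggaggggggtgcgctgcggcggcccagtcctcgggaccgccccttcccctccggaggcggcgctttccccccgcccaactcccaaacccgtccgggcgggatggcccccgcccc
The YAP1 stretch holds CACGTG, the form of the E-box that MYC proteins bind, starting at −203 with the first transcribed base as 0, and GGAATG starting at −162. The AHNAK stretch holds no match. Over windows of 300 bases, which add the first 50 transcribed bases, and on both strands, CACGTG was found in 7.26% of 35116 RefSeq promoters, CANNTG in 68.7% and GGAATG in 14.0%. CACGTG is a form of CANNTG, so these matches overlap. The table matched 8 of the 10 genes with 9 windows, without TWIST1 and SNAI2. In that set CACGTG was found at YAP1 alone, CANNTG at YAP1 and at 1 of the 2 starts of WWTR1, and GGAATG at YAP1 and, 28 bases past the first transcribed base, at AHNAK. A match describes the letters and is not shown to be a bound site.

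**Figure D1:**
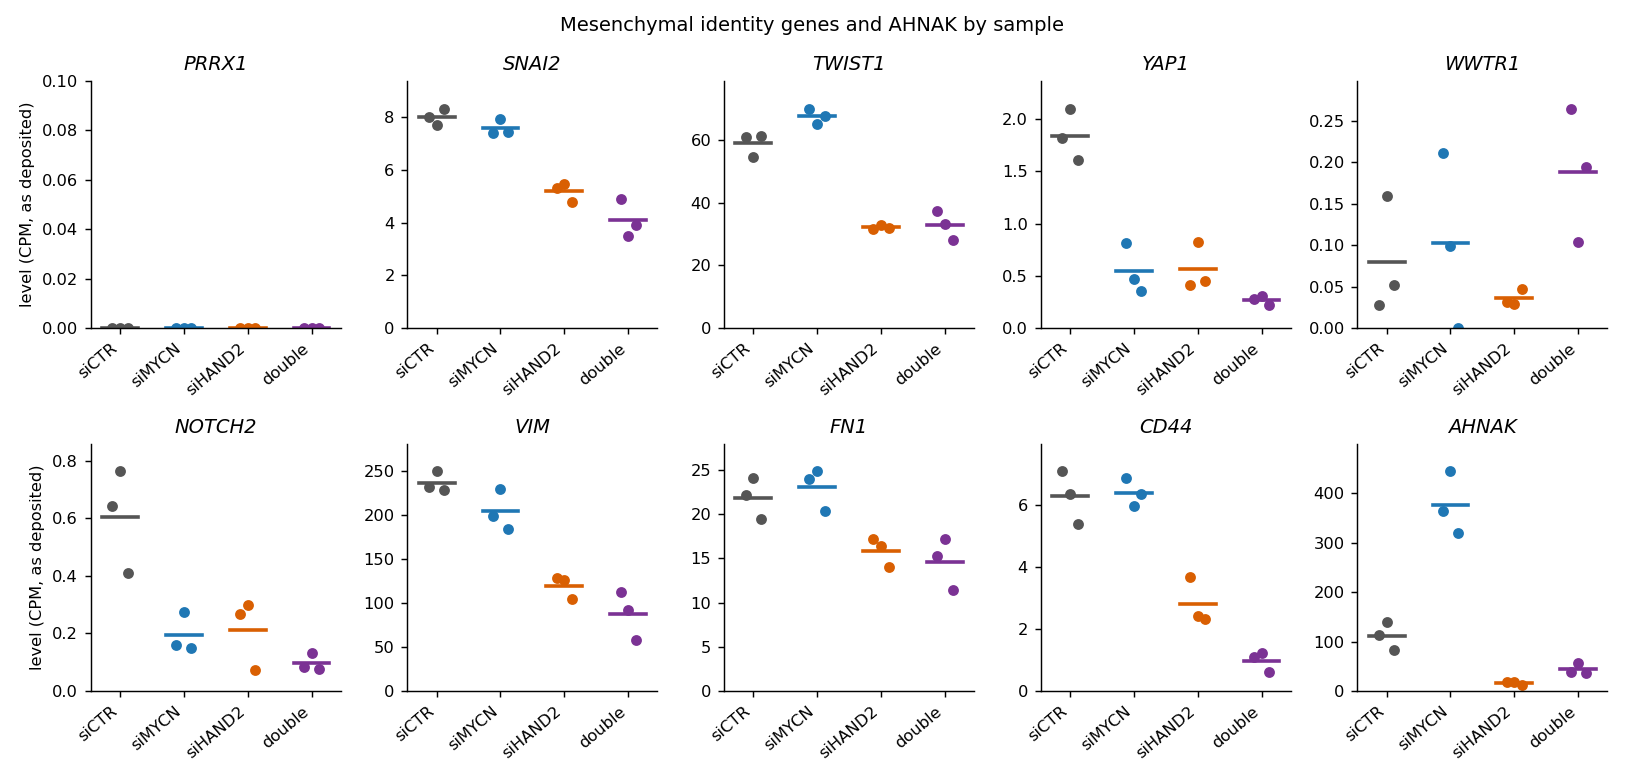
Level of each of the 10 genes in each sample, in CPM as deposited, on linear axes from 0 that differ between panels. Points are samples and horizontal bars are means of 3. SNAI2, TWIST1, VIM, FN1 and CD44 are lower in siHAND2 and the double knockdown than in siCTR, YAP1 and NOTCH2 are lower in all 3 knockdown groups, and AHNAK averages 375 CPM in siMYCN and 16.5 in siHAND2.

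Levels in siCTR spanned several orders of magnitude. Per kilobase of the canonical transcript in GENCODE 44, VIM was highest at 110.2 (106 to 116) CPM per kb, given as the mean and the range of 3 samples, and TWIST1 was next at 36.1 (33.4 to 37.6). AHNAK followed at 5.96 (4.43 to 7.42), SNAI2 at 3.67 (3.53 to 3.81), FN1 at 2.61 (2.31 to 2.87) and CD44 at 1.15 (0.988 to 1.30). YAP1 stood at 0.341 (0.297 to 0.389), NOTCH2 at 0.0530 (0.0359 to 0.0668) and WWTR1 at 0.0159 (0.00549 to 0.0317), and the samples of neighbours in this order did not overlap. PRRX1, a homeobox factor able to drive the mesenchymal state, stood in all 12 samples at the constant of 0.0001 that the table gives to a gene without reads. A count of 0 allows up to 3 reads, which is 0.0468 to 0.0950 CPM depending on the library. SNAI2, TWIST1, VIM, FN1, CD44 and AHNAK passed the filter of a mean of at least 1 CPM and were tested, while YAP1, WWTR1, NOTCH2 and PRRX1 did not pass.

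The 5 tested genes other than AHNAK fell when HAND2 was knocked down, and 0 of 5 passed the test when MYCN was. HAND2 stood at 26.0% of siCTR in siHAND2 and MYCN at 67.5% in siMYCN, so target and depth of knockdown cannot be told apart. The 4 genes under the filter are outside these counts. Of them YAP1 and NOTCH2 stood at 29.7% and 32.1% of siCTR in siMYCN, WWTR1 at 129% and PRRX1 at the constant. In siHAND2 all 5 fell, against 30.4% of the 12680 genes tested as deposited, and all 5 fell after rescaling, against 24.8%. Their median log2 fold change was −0.85, beside −0.14 for all genes. In siMYCN 0 of 5 passed (limma, adjusted p under 0.05), against 33.7% of all genes, and 0 of 5 had an unadjusted p under 0.05. After rescaling 1 of 5 passed there, TWIST1, against 47.8%. In the double knockdown all 5 fell, against 50.1%, and after rescaling 4 fell, against 32.9%. In bulk RNA, fewer cells of a kind and less RNA per cell cannot be told apart.

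TWIST1 (chromosome 7, 19155091 to 19157296, minus strand, hg19) is a basic helix-loop-helix factor, like HAND2, and drives epithelial-to-mesenchymal transition. It read 60.9, 54.4 and 61.3 CPM in siCTR, 69.9, 64.8 and 67.5 in siMYCN, 31.5, 32.8 and 32.0 in siHAND2, and 37.3, 33.0 and 28.1 in the double knockdown. Samples of siHAND2 and of the double knockdown all lay under the siCTR samples, and those of siMYCN all lay above them. Of all genes tested, 45.0% in siHAND2 and 48.3% in the double knockdown had all samples under those of siCTR. The same shares stand beside the separations of SNAI2, VIM, FN1 and CD44 below. The share with all siMYCN samples above siCTR was not calculated. TWIST1 fell by 0.85 on the log2(CPM + 1) scale in siHAND2 (SE 0.11, limma adjusted p 1.3e-06) and by 0.83 in the double knockdown (SE 0.11, adjusted p 5.0e-07). After rescaling the falls were 0.69 and 0.48, both called. Its difference of 0.19 in siMYCN was not called as deposited (adjusted p 0.20) and was called after rescaling (0.20, adjusted p 0.011). Between the double knockdown and siHAND2 it differed by 0.02 as deposited (adjusted p 0.90) and by 0.22 after rescaling (adjusted p 0.0079).

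SNAI2 (chromosome 8, 49830239 to 49834000, minus strand) is a zinc finger repressor of epithelial genes. It read 7.98, 7.69 and 8.31 CPM in siCTR, 7.39, 7.93 and 7.41 in siMYCN, 5.32, 5.47 and 4.79 in siHAND2, and 4.89, 3.50 and 3.90 in the double knockdown. No sample of siHAND2 or the double knockdown reached the lowest siCTR sample, while siMYCN overlapped siCTR. It fell by 0.54 in siHAND2 (SE 0.11, limma adjusted p 4.6e-04) and by 0.83 in the double knockdown (SE 0.11, adjusted p 5.7e-07), and by 0.40 and 0.53 after rescaling, both called. The double knockdown was lower than siHAND2 by a log2 difference of −0.29 (adjusted p 0.046), a call lost after rescaling (adjusted p 0.25) and on leaving out any 1 of 10 of the 12 samples.

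VIM (chromosome 10, 17270258 to 17279593, plus strand) encodes vimentin, the intermediate filament of mesenchymal and of many immature neural cells. It read 233, 250.3 and 229 CPM in siCTR, 199, 230.0 and 185 in siMYCN, 129, 126 and 105 in siHAND2, and 112, 92.1 and 58.5 in the double knockdown. One siMYCN sample reached into the siCTR range, and all samples of siHAND2 and the double knockdown lay under it. VIM stood at 50.5% of siCTR in siHAND2 and 36.9% in the double knockdown, or 56.3% and 46.3% after rescaling. It fell by 0.98 on the log2 scale (SE 0.16, limma adjusted p 1.9e-05) and by 1.48 (SE 0.16, adjusted p 1.0e-08), and the difference in siMYCN was −0.22 (adjusted p 0.31). The double knockdown was lower than siHAND2 by a log2 difference of −0.49 (adjusted p 0.016), which without double knockdown replicate 3 was −0.23 (adjusted p 0.10), and which also lost its call without siHAND2 replicate 1 or 2 (adjusted p 0.052 and 0.062). VIM-AS1, on the other strand, overlaps the start of VIM and averaged 0.171 CPM in siCTR.

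FN1 (chromosome 2, 216225163 to 216300794, minus strand) encodes fibronectin, a matrix glycoprotein bound by integrins. It read 22.2, 24.1 and 19.4 CPM in siCTR, 24.0, 24.9 and 20.3 in siMYCN, 17.2, 16.4 and 14.0 in siHAND2, and 15.3, 17.2 and 11.4 in the double knockdown. Samples of siHAND2 and the double knockdown lay under those of siCTR as deposited, and after rescaling the double knockdown overlapped siCTR. FN1 fell by 0.44 on the log2 scale in siHAND2 (SE 0.13, limma adjusted p 0.0093) and by 0.29 after rescaling (adjusted p 0.032). Without siCTR replicate 2 or siHAND2 replicate 3 the call as deposited was lost (adjusted p 0.060 and 0.057). In the double knockdown FN1 fell by 0.56 (adjusted p 5.8e-04), but the rescaled difference of −0.22 was not called (adjusted p 0.067).

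CD44 (chromosome 11, 35160417 to 35253950, plus strand), the cell surface receptor for hyaluronan, had the largest fall of the 5 genes in the double knockdown. It read 7.08, 6.34 and 5.37 CPM in siCTR, 6.86, 5.95 and 6.33 in siMYCN, 3.67, 2.41 and 2.31 in siHAND2, and 1.09, 1.22 and 0.609 in the double knockdown. The siMYCN samples lay within the siCTR range, the siHAND2 samples under it, and the double knockdown samples under those of siHAND2. CD44 stood at 44.7% of siCTR in siHAND2 and 15.5% in the double knockdown (49.8% and 19.6% after rescaling), with log2 changes of −0.95 (SE 0.14, limma adjusted p 7.2e-06) and −1.89 (SE 0.14, adjusted p 1.5e-11).

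The effect of the MYCN siRNA on CD44 differed with and without the HAND2 siRNA. Alone it gave a log2 difference of 0.03 from siCTR (limma adjusted p 0.90), and added to siHAND2 it gave −0.94 (adjusted p 1.3e-05). The interaction, the difference between these, was −0.97 (SE 0.20, adjusted p 0.0066) and −0.89 after rescaling (adjusted p 0.013). CD44 was 1 of the 5 genes called for an interaction, against 4.01% of all genes as deposited and 6.15% after rescaling. Without the filter on low values the call was lost (adjusted p 0.098). The share of all genes with a called interaction was 35.1% without double knockdown replicate 1 and 2.06% to 2.59% without siCTR replicate 1 or 3, siHAND2 replicate 1 or 2 or any siMYCN replicate, and CD44 stayed called in all 12 fits with a sample left out.

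**Figure D2:**
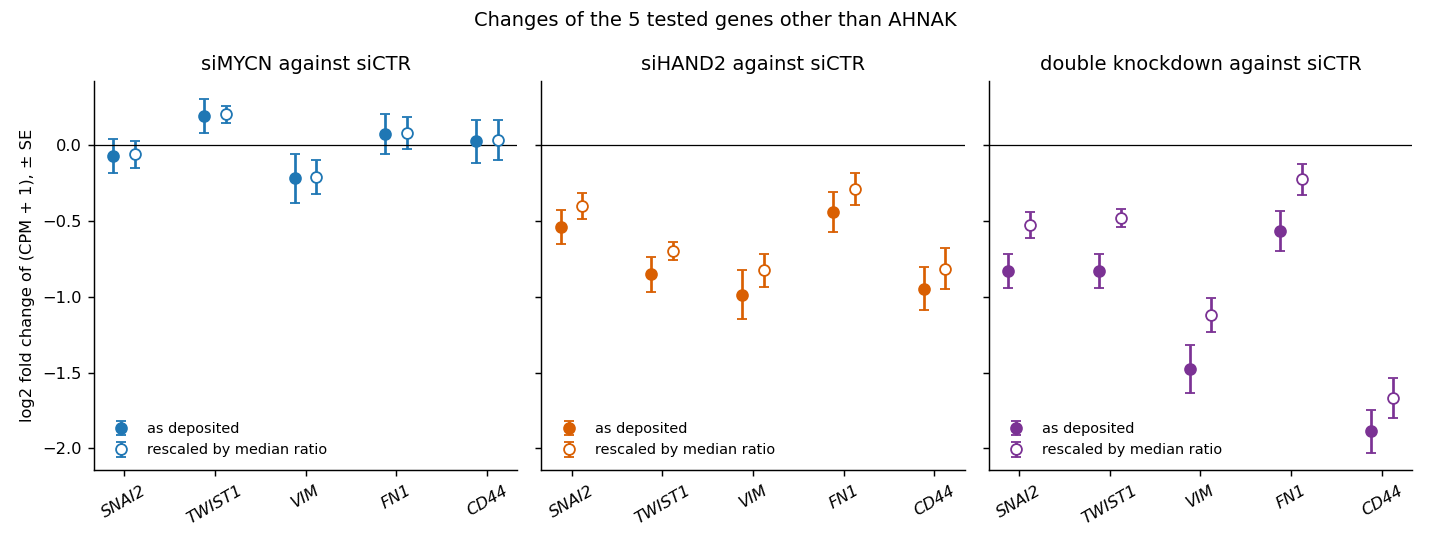
Log2 fold change of CPM + 1 against siCTR for the 5 tested genes other than AHNAK, in siMYCN (left), siHAND2 (middle) and the double knockdown (right). Filled points are as deposited, open points are rescaled by the median ratio, and bars show ± SE. In siMYCN the deposited points lie between −0.22 and 0.19, and in the other panels every point lies under 0, with CD44 lowest at −1.89.

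Set against each other, the separate knockdowns differed for all 5 genes. Each was higher in siMYCN than in siHAND2, by log2 differences from 0.47 for SNAI2 to 1.05 for TWIST1 (limma adjusted p 0.0022 and 6.4e-08), against 26.1% of all genes higher there as deposited and 22.3% after rescaling. The double knockdown was lower than siMYCN for all 5, from −0.64 for FN1 to −1.92 for CD44 (adjusted p 2.5e-04 and 3.0e-11), against 50.0% of all genes and 26.5% after rescaling. It was lower than siHAND2 for SNAI2, VIM and CD44, 3 of the 5, against 31.5% of all genes. After rescaling VIM and CD44 were lower, against 23.6%, and TWIST1 was higher, against 26.1%. These comparisons share samples with those against siCTR.

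YAP1 and WWTR1 encode YAP and TAZ, coactivators that the Hippo kinases keep out of the nucleus and that act through TEAD factors. YAP1 (chromosome 11, 101981192 to 102104155, plus strand) read 1.82, 2.10 and 1.60 CPM in siCTR, 0.818, 0.469 and 0.353 in siMYCN, 0.412, 0.824 and 0.453 in siHAND2, and 0.281, 0.311 and 0.219 in the double knockdown. These are 66 to 92 estimated reads per siCTR sample and 9 to 31 per knockdown sample. Every knockdown sample lay under every siCTR sample, and siMYCN and siHAND2 overlapped. Of the genes tested, 29.6%, 45.0% and 48.3% had all samples of siMYCN, siHAND2 and the double knockdown under those of siCTR. The means stood at 29.7%, 30.6% and 14.7% of siCTR in the same order, and at 29.8%, 34.1% and 18.8% after rescaling. In the fit without a filter YAP1 was called lower in each, with log2(CPM + 1) changes of −0.88, −0.87 and −1.16 (limma adjusted p 7.2e-04, 4.4e-04 and 1.6e-05), where 9.04%, 16.8% and 30.8% of 21123 genes were called lower. WWTR1 (chromosome 3, 149235016 to 149442576, minus strand) had 0 to 17 estimated reads per sample, at most 0.265 CPM, and each knockdown group overlapped siCTR. As deposited and without a filter it was called in no knockdown against siCTR (limma adjusted p 0.86, 0.63 and 0.14). With rescaling in the same fit it was called higher in the double knockdown, by 0.18 on the log2(CPM + 1) scale (adjusted p 0.043), a difference that rests on 4 to 17 estimated reads per sample there.

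The surrounding pathways were read from lists of genes. For comparison, 17.4% of all genes rose and 16.3% fell in siMYCN, 12.3% rose and 30.4% fell in siHAND2, and 17.4% rose and 50.1% fell in the double knockdown. After rescaling, 3222 of 12693 genes rose and 2843 fell in siMYCN. On that scale 26.0% rose and 24.8% fell in siHAND2, and 37.8% rose and 32.9% fell in the double knockdown. Of 14 Hippo kinases and adaptors, 4 fell and 1 rose in siMYCN, 7 fell and 1 rose in siHAND2, and 11 fell and 0 rose in the double knockdown as deposited. After rescaling, of 13, 4 fell and 1 rose in siMYCN, 6 fell and 1 rose in siHAND2, and 7 fell and 2 rose in the double knockdown. The median log2 fold change of this list in the double knockdown was −0.60, beside −0.28 for all genes. WWC1, the gene for the Hippo activator KIBRA, fell from 22.5 ± 0.545 CPM (SD, n = 3) in siCTR to 11.3 ± 0.749 in siMYCN, 13.9 ± 0.900 in siHAND2 and 5.11 ± 1.41 in the double knockdown. Its relative WWC2 fell by 1.00, 0.72 and 1.59 on the log2 scale. Of 5 genes in the list of TEAD partners, 3 fell and 1 rose in the double knockdown, as deposited and after rescaling. TEAD4 fell from 15.6 ± 0.182 CPM in siCTR to 8.87 ± 0.254, 8.07 ± 0.602 and 3.82 ± 1.10 in the same order of knockdowns (log2 changes −0.75, −0.87 and −1.81, limma adjusted p 5.7e-05, 4.5e-06 and 4.1e-12). TEAD1 fell by 0.89 in the double knockdown (adjusted p 8.2e-06), and TEAD3 rose by 0.37 (adjusted p 0.0059).

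Targets of YAP and TAZ moved both ways. Of 14 tested, 4 rose and 4 fell in siMYCN, 2 rose and 4 fell in siHAND2, and 2 rose and 6 fell in the double knockdown as deposited. After rescaling, with 13 tested, 4 rose and 4 fell in siMYCN, 5 rose and 3 fell in siHAND2, and 6 rose and 4 fell in the double knockdown. AMOTL2, an angiomotin relative that binds YAP, rose from 13.6 ± 0.188 CPM in siCTR to 29.7 ± 0.960, 30.8 ± 3.07 and 44.8 ± 9.74. F3, the gene for tissue factor, read 8.13 ± 0.562 CPM in siCTR and fell by 1.18 in siHAND2 and 1.53 in the double knockdown on the log2 scale (limma adjusted p 1.7e-07 and 3.6e-10). CYR61 (CCN1), a much used readout of YAP, was under the filter and is named after its values were seen: it read 1.07 ± 0.196 CPM in siCTR, 0.625 ± 0.101 in siMYCN, 0.625 ± 0.103 in siHAND2 and 0.256 ± 0.0749 in the double knockdown. CTGF (CCN2), its relative, was at or under 3 estimated reads in every sample.

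NOTCH2 (chromosome 1, 120454176 to 120612318, minus strand), a Notch receptor tied to the mesenchymal state, was scarce. It read 0.641, 0.764 and 0.410 CPM in siCTR, 0.160, 0.274 and 0.148 in siMYCN, 0.266, 0.299 and 0.0723 in siHAND2, and 0.0824, 0.132 and 0.0765 in the double knockdown. All 9 knockdown samples lay under the siCTR samples, with means of 32.1%, 35.1% and 16.0% of siCTR. These values rest on 23 to 33 estimated reads per siCTR sample and 3.0 to 11 per knockdown sample, the lowest near the floor of 3. Of the genes tested, 29.6%, 45.0% and 48.3% had all samples of siMYCN, siHAND2 and the double knockdown under those of siCTR. In the fit without a filter the log2 changes were −0.42, −0.40 and −0.54 (limma adjusted p 0.0069, 0.0061 and 3.8e-04). In that fit 9.04%, 16.8% and 30.8% of 21123 genes were called lower. NOTCH2NL, a partial and near-identical copy, read 2.66 ± 0.523 CPM in siCTR and 1.18 ± 0.329 in the double knockdown. How reads shared by both genes were assigned is not given in the sources used here, so the level of NOTCH2 is uncertain.

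The receptor genes NOTCH1 and NOTCH3, which passed the filter, fell in every knockdown, and ligand genes rose. NOTCH1 read 7.66 ± 0.719 CPM in siCTR, 5.20 ± 0.249 in siMYCN, 5.11 ± 1.28 in siHAND2 and 3.14 ± 0.526 in the double knockdown, with log2 changes of −0.48, −0.52 and −1.07 (limma adjusted p 0.0067, 0.0027 and 1.1e-07). NOTCH3 fell by 0.60, 0.64 and 1.22 (adjusted p 0.0068, 0.0030 and 5.1e-07). Of 4 ligand genes tested, 1 rose in siMYCN, 4 in siHAND2 and 3 (4 after rescaling) in the double knockdown, and 0 fell in any. JAG1, a canonical ligand, rose from 2.89 ± 0.396 CPM to 9.96 ± 0.358, 7.94 ± 0.452 and 13.1 ± 3.87. DLL3, a divergent ligand known to inhibit Notch within the same cell, read 26.2 ± 4.03 CPM in siCTR and rose to 66.8 ± 3.16 in siHAND2 and 57.9 ± 12.7 in the double knockdown. DLK1, a noncanonical ligand, rose by 1.59 in siHAND2 and 1.02 in the double knockdown (adjusted p 3.9e-08 and 8.3e-06). NRARP, a target and feedback inhibitor of Notch, fell by 0.35, 0.36 and 0.87 (adjusted p 0.031, 0.020 and 9.0e-07), and after rescaling the adjusted p was 0.018, 0.075 and 1.0e-04. The list held 4 tested targets, and NRARP was the only one called in either single knockdown as deposited. In the double knockdown 1 target rose as deposited, and 1 rose on the rescaled values. The median log2 fold change of the 4 targets there was −0.11 as deposited and 0.091 on the rescaled values. Of 4 nuclear partners of Notch, 0 passed in either single knockdown as deposited, and after rescaling 1 rose in siHAND2. In the double knockdown 1 of the 4 fell as deposited, and after rescaling 1 rose and 0 fell.

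**Figure D3:**
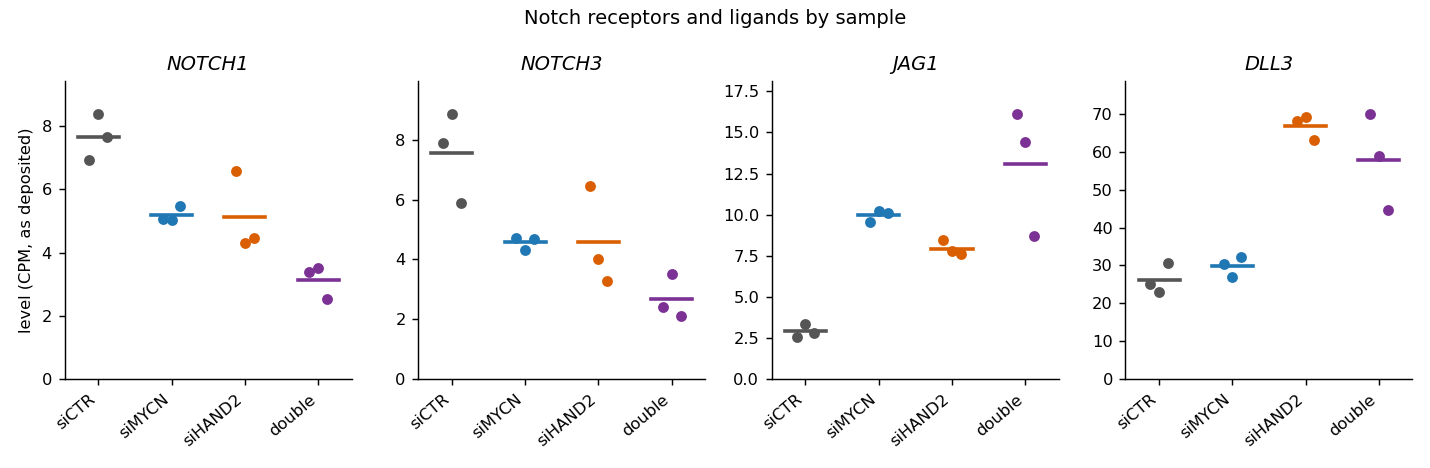
Levels of the receptor genes NOTCH1 and NOTCH3 and of the ligand genes JAG1 and DLL3 in each sample, in CPM as deposited, on linear axes from 0. Points are samples and bars are means of 3. JAG1 spans 8.73 to 16.1 CPM in the double knockdown against 2.56 to 3.33 in siCTR, while NOTCH1 spans 2.54 to 3.50 against 6.94 to 8.38.

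AHNAK (chromosome 11, 62201014 to 62314333, minus strand) encodes a very large scaffold protein that lies under the plasma membrane and binds annexin A2 with S100A10. It read 113, 139 and 83.2 CPM in siCTR, 363, 444 and 319 in siMYCN, 18.5, 18.8 and 12.4 in siHAND2, and 39.4, 57.4 and 36.9 in the double knockdown. No 2 groups overlapped, and within each replicate number the order from high to low was siMYCN, siCTR, double knockdown, siHAND2. The mean stood at 335% of siCTR in siMYCN and 14.8% in siHAND2, log2 differences of 1.75 and −2.68 (1.76 and −2.52 after rescaling), and these are the values the gene was chosen by. Of all genes tested, 1.86% were called higher in siMYCN and lower in siHAND2, and 12 genes, or 0.0946%, were so by more than 1 on the log2 scale in each. AHNAK was chosen by these same changes, so the shares describe all genes and are no test of AHNAK.

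The double knockdown samples of AHNAK were not used to choose it. They stood at 39.8% of siCTR, or 51.3% after rescaling. AHNAK fell there by 1.31 on the log2 scale (SE 0.18, limma adjusted p 5.0e-07), and by 0.95 after rescaling (adjusted p 5.6e-04), against the same siCTR samples that the choice used. The spread was estimated over all 4 groups, and the double knockdown also received the HAND2 siRNA. These p-values are therefore not independent of the choice. Against siHAND2 the double knockdown differed by 1.37 and against siMYCN by −3.06, and the interaction was −0.38, all given without a test.

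Relatives and partners of AHNAK had patterns of their own. AHNAK2, its closest relative, read 7.13 ± 1.35 CPM in siCTR, 17.5 ± 1.67 in siMYCN, 15.3 ± 1.06 in siHAND2 and 35.2 ± 5.81 in the double knockdown. It rose by 1.20, 1.01 and 2.16 on the log2 scale (limma adjusted p 9.8e-08, 6.3e-07 and 2.4e-13), so it was high in siHAND2, where AHNAK was low. PRX, the gene for the related protein periaxin of myelinating cells, rose by 0.51, 0.40 and 0.50 (adjusted p 0.0061, 0.022 and 0.0028). ANXA2, which encodes annexin A2, rose from 348 ± 23.1 to 532 ± 36.9 CPM in siMYCN and fell to 253 ± 8.69 in siHAND2 (log2 changes 0.61 and −0.46, adjusted p 7.9e-04 and 0.0069). In the double knockdown its difference was 0.04 as deposited (adjusted p 0.79) and 0.40 after rescaling (adjusted p 1.7e-04). ANXA2 has near-identical processed copies such as ANXA2P2, which makes its level uncertain. S100A10 stood at the constant of the table in all 12 samples.

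**Figure D4:**
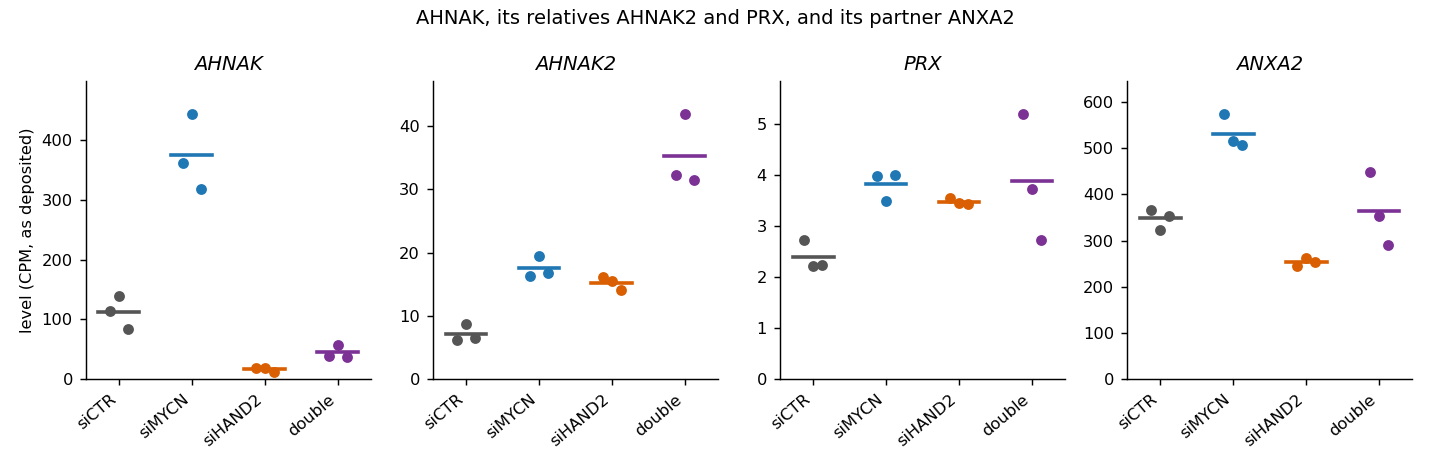
Levels of AHNAK, its relatives AHNAK2 and PRX, and its partner ANXA2 in each sample, in CPM as deposited, on linear axes from 0. Points are samples and bars are means of 3. AHNAK averages 375 CPM in siMYCN and 16.5 in siHAND2, AHNAK2 lies above siCTR in every knockdown group, and ANXA2 lies above siCTR in siMYCN and below it in siHAND2.

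Among 10191 genes with a mean of at least 5 CPM, those whose pattern over the 12 samples was most like that of AHNAK were DKK1, GCHFR, STRA6, PLPPR4 and MCC. Their Pearson correlations with AHNAK on log2(CPM + 1) rounded to 0.98 each, over points that share libraries and the 4 groups. DKK1, which encodes a secreted inhibitor of WNT signalling, read 18.1 ± 3.69 CPM in siCTR, 37.3 ± 8.63 in siMYCN, 3.29 ± 0.730 in siHAND2 and 6.52 ± 1.72 in the double knockdown. STRA6, the gene for a retinol transporter, read 11.4 ± 1.33, 35.6 ± 2.95, 3.55 ± 0.494 and 7.46 ± 1.55 CPM in the same order.

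Genes around fibronectin and CD44 were read from their lists. Of 4 integrin genes for fibronectin receptors, 0 passed in siMYCN as deposited and 2 rose after rescaling, and ITGA4 and ITGAV fell in siHAND2, by 0.52 and 0.76 on the log2 scale (limma adjusted p 3.1e-04 and 1.4e-05). ITGAV read 52.0 ± 2.46 CPM in siCTR, 30.4 ± 2.49 in siHAND2 and 26.2 ± 4.58 in the double knockdown. CEMIP, which encodes a protein needed to break down hyaluronan, rose from 1.74 ± 0.208 to 7.01 ± 0.662 CPM in siMYCN and read 1.19 ± 0.239 in siHAND2 and 1.62 ± 0.552 in the double knockdown. TMEM2 (CEMIP2), its membrane-bound relative, rose from 9.68 ± 0.636 CPM to 12.7 ± 0.713, 15.1 ± 1.08 and 17.5 ± 2.97. RDX, the gene for radixin, which links CD44 to actin, fell by 0.58 in siHAND2 and 0.83 in the double knockdown, and MSN, for the related moesin, was at or under 3 estimated reads in every sample.

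Other factors of epithelial-to-mesenchymal transition had other patterns than TWIST1 and SNAI2. ZEB1 rose from 122 ± 3.92 CPM in siCTR to 155 ± 7.39 in siMYCN, 190.5 ± 4.19 in siHAND2 and 189 ± 33.8 in the double knockdown (limma adjusted p 0.032, 1.4e-04 and 9.4e-05). SNAI1, the relative of SNAI2, rose by 0.45 in siMYCN (adjusted p 0.016) and fell by 0.47 in the double knockdown (adjusted p 0.0051), the second call being lost after rescaling (adjusted p 0.22). PRRX2, the relative of PRRX1, read 9.02 ± 0.542 CPM in siCTR and fell by 0.50 in siMYCN and 0.70 in the double knockdown (adjusted p 0.0032 and 2.4e-05). TWIST2 was at or under 3 estimated reads in every sample. Of 7 partners and inhibitors of TWIST1, 2 rose and 0 fell in each single knockdown as deposited, and 3 rose and 2 fell in the double knockdown. After rescaling 3 rose and 1 fell in siMYCN, 5 rose and 0 fell in siHAND2, and 5 rose and 1 fell in the double knockdown. Among them ID4, which encodes an inhibitor of basic helix-loop-helix proteins, rose by 0.97, 1.48 and 2.48 on the log2 scale (adjusted p 3.5e-06, 2.1e-09 and 3.5e-14).

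Wider lists of the mesenchymal state held rises and falls. Of 14 other transcription factors tested, 1 rose and 3 fell in siMYCN, 3 rose and 6 fell in siHAND2, and 3 rose and 7 fell in the double knockdown. After rescaling the numbers were 2 and 3, 5 and 6, and 5 and 5. SMAD3, the effector of TGF-beta receptors, fell from 12.7 ± 2.11 CPM in siCTR to 4.62 ± 0.755, 3.24 ± 0.517 and 1.79 ± 0.493. NR3C1, the glucocorticoid receptor gene, fell by 1.12 in siHAND2 and 1.80 in the double knockdown. Of 11 TGF-beta ligand, receptor and SMAD genes, 3 rose and 3 fell in siMYCN, 2 rose and 2 fell in siHAND2, and 1 rose and 4 fell in the double knockdown. After rescaling 7 rose and 3 fell in siMYCN, 3 and 2 in siHAND2, and 5 and 3 in the double knockdown.

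Of 38 mesenchymal marker proteins, 21 were tested, and 7 others were at or under 3 estimated reads in all 12 samples, among them ANXA1, CAV1, MYL9 and POSTN at the constant. In siMYCN 8 of the 21 rose and 2 fell, in siHAND2 2 rose and 11 fell, and in the double knockdown 4 rose and 12 fell. After rescaling the numbers were 9 and 3, 2 and 11, and 5 and 10. Their median log2 fold change in siHAND2 was −0.34, beside −0.14 for all genes. COL1A1, a fibrillar collagen gene that is also among the fibroblast markers, fell from 7.90 ± 1.01 CPM in siCTR to 1.41 ± 0.316 in siHAND2 and 0.781 ± 0.0894 in the double knockdown. SPARC, the gene for the matrix protein osteonectin, fell from 58.5 ± 2.98 to 20.2 ± 2.81 and 13.5 ± 4.05 CPM. COL5A1, another collagen gene, rose from 40.7 ± 2.65 CPM to 85.5 ± 1.03 in siMYCN, 86.2 ± 9.86 in siHAND2 and 106 ± 11.2 in the double knockdown.

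Of 7 other intermediate filament genes tested, 2 rose and 1 fell in siMYCN, 3 and 2 in siHAND2, and 3 and 3 in the double knockdown. After rescaling the numbers were 2 and 2, 3 and 2, and 4 and 3. Among them NES, which encodes nestin of neural progenitors, read 222 ± 30.9 CPM in siCTR and 197 ± 20.5 in siMYCN. It fell, as VIM did, to 91.3 ± 9.69 CPM in siHAND2 and 44.8 ± 14.2 in the double knockdown (log2 changes −1.27 and −2.32, limma adjusted p 7.3e-07 and 3.8e-12). PRPH, the gene for the neuronal filament peripherin, rose from 56.6 ± 2.29 CPM to 145 ± 1.65, 109 ± 1.60 and 149 ± 46.1.

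**Figure D5:**
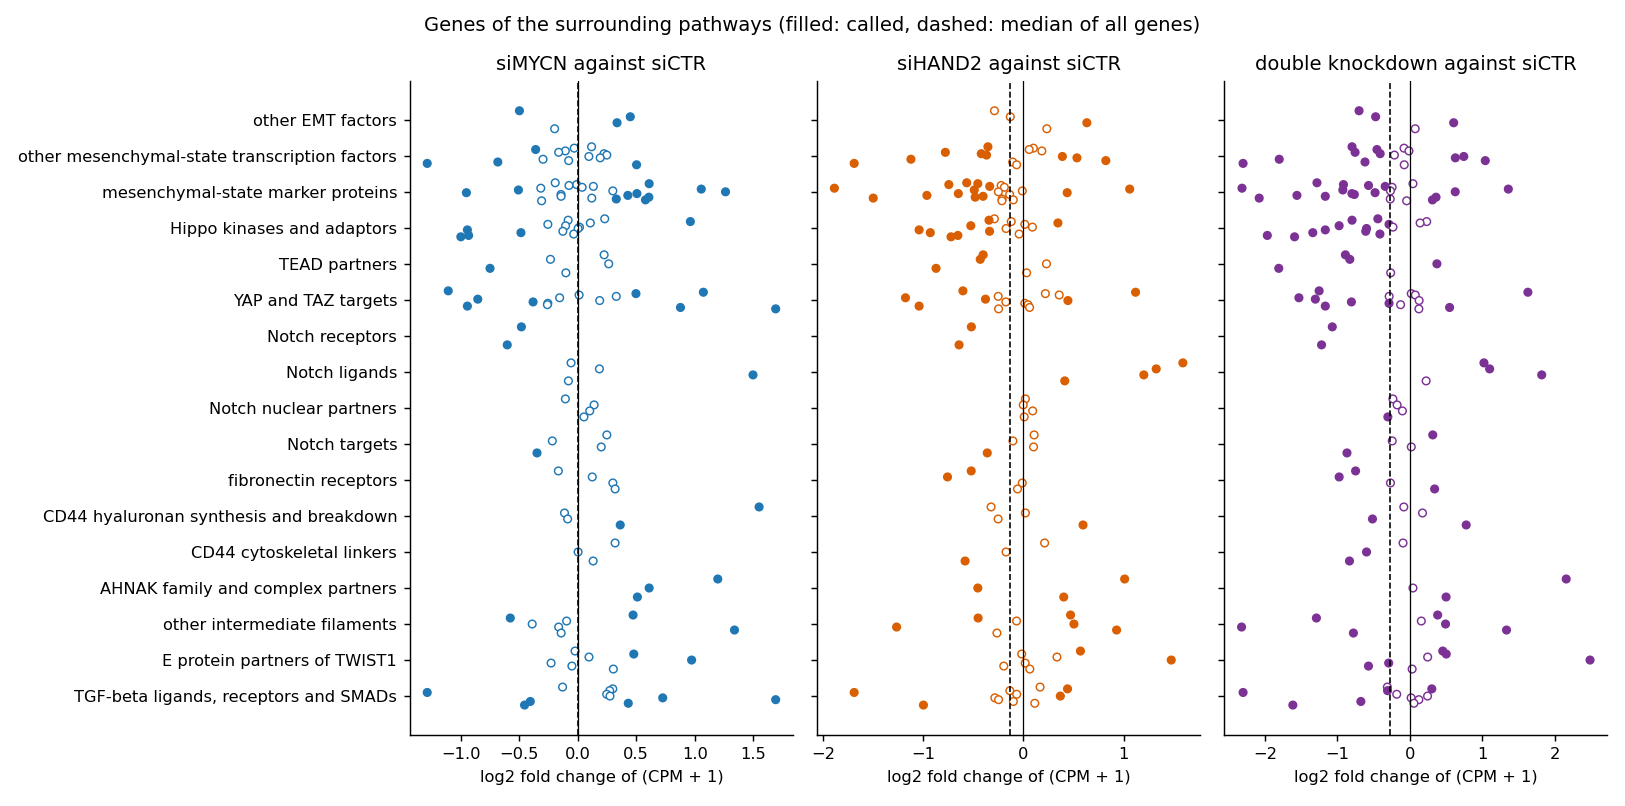
Log2 fold change of CPM + 1 against siCTR, as deposited, for each tested gene of the pathway lists, in siMYCN, siHAND2 and the double knockdown. Each point is a gene, filled where it passed limma's test at an adjusted p under 0.05, and the dashed line is the median of all genes tested (−0.14 and −0.28 in the last 2 panels). Both Notch receptors lie left of the dashed line in all 3 panels, and the targets of YAP and TAZ spread to both sides.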

How the data were processed

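RNA of 12 IMR32 samples was sequenced, 3 per group. The authors deposited a table of CPM with 27514 genes, each value carrying an added constant of 0.0001. The submitters' processing notes name STAR 2.5.1, Partek and hg19 (GRCh37). The read counter, strand setting, annotation and filters are not given in the sources used here. Depth was estimated from the smallest steps between low CPM values, taken as 1 read. Between 79.9% and 90.7% of values were then whole within 0.05 reads, too few to recover counts, so no count test was run. Floors of 3 reads cover counting error only.

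A linear model of the 4 groups on log2(CPM + 1) was fitted with limma 3.58.1 (lmFit, eBayes with trend) in R 4.3.3 to the 12680 genes whose CPM averaged 1 or more. Fold changes on this scale understate those of low genes. The 7 contrasts were two-sided, with Benjamini-Hochberg adjustment over all genes tested and a threshold of 0.05. The script was tested on simulated data. The labels do not say that replicates came from separate cultures, so p-values measure only the spread between samples. Groups and replicate numbers come from the titles. Deviations of same-numbered samples from their group means correlated at 0.15 to 0.44 for siCTR with siMYCN and at 0.14 to 0.33 for siMYCN with siHAND2, so there the numbers were taken to pair the samples. In the other pairs of groups at least 1 number was not over 0.1. The main fit held no term for the replicate number, so its p-values leave this pairing out. A fit with that term, the replicate block, was run as an alternative.

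The 10 genes, 18 pathway lists and 6 marker lists were chosen with earlier results of these data known. Lists with at most 6 tested genes could be named whole, and from longer ones the 2 largest rises and 2 largest falls in the double knockdown among called genes. Alternatives were 2 rescalings, pseudocount 0.1, the filter dropped or set at 5, no trend, the compared groups alone, the replicate block, and each sample left out. Promoters are from RefSeq, GRCh38.p14, matched by symbol. Some genes of the lists are not reported here.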

Additional observations from a re-analysis of the deposited data

Results flagged for a closer look

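The effect of 1 siRNA differed with and without the other (limma's interaction term, adjusted p under 0.05) for 7 genes named above. Of all 12680 genes tested, 508 (4.01%) were called, 463 with a negative and 45 with a positive interaction, and the median was −0.18. After rescaling 566 were negative and 214 positive, with a median of −0.0088. A negative sign was thus common among all genes. CD44 had an interaction of −0.97 on the log2 scale (adjusted p 0.0066). CEMIP had −1.31 (2.5e-04, and 0.0026 after rescaling), with a rise in siMYCN alone. PRPH had −0.94 (0.011), JAG1 −0.88 (0.014) and COL5A1 −0.76 (0.0085), each rising in both single knockdowns and by less than the sum of these in the double one. NES had −0.89 (0.024) and SNAI1 −0.79 (0.023). After rescaling all 7 were still called, with interactions from −1.16 to −0.57. With each sample left out in turn, SNAI1 lost its call in 5 of 12 fits and NES in 4. Without the filter COL5A1 and CEMIP alone stayed called (adjusted p 0.037 and 0.023).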

How the results depend on the processing

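Of 723 recalculated values for the 5 tested genes other than AHNAK, 678 kept direction and call, 25 lost the call, 10 gained it and 10 turned direction. The cause was not tested. The 9 mesenchymal genes called in siMYCN against siCTR numbered 0. This became 1 after rescaling by the median ratio (TWIST1), and 2 after rescaling to the listed sum (TWIST1 and YAP1), without a filter (YAP1 and NOTCH2), with the compared groups alone (TWIST1 and VIM) and with the replicate block plus rescaling (TWIST1 and VIM). With each sample left out it ranged from 0 to 1, TWIST1 being called without double knockdown replicate 3 (adjusted p 0.047). For the double knockdown against siHAND2 the number was 3, 1 without a filter, and 1 to 3 with each sample left out, 1 without siHAND2 replicate 1 or 2 or double knockdown replicate 3. For the interaction it was 1, and 0 without a filter or at a mean CPM of at least 5, which removes CD44 from the test. The replicate block alone changed 0 of 35 calls of tested genes, and raised the share of all genes with a called interaction from 4.01% to 10.1%. The share called in siMYCN, 33.7%, was 18.4% without a filter, 54.9% with the compared groups alone and 51.0% with block and rescaling. Without a filter the interaction share was 0.729%.

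Against siHAND2 in the double knockdown, TWIST1 became −0.074 without double knockdown replicate 1, in a leave-one-out range of −0.074 to 0.12. Its interaction became 0.011 after rescaling, with or without the block, and ranged from −0.27 to −0.070 with samples left out. FN1 there became 0.064 after rescaling, with or without the block, and 0.082 on the listed sum, with a leave-one-out range of −0.24 to 0.033. In siMYCN, FN1 ranged from −0.0075 to 0.16 and CD44 from −0.063 to 0.11 with samples left out, the lowest without siCTR replicate 3, and CD44 was −0.018 without siMYCN replicate 1. RBPJ in the double knockdown, −0.30 as deposited, became 0.052 after rescaling, with or without the block, and 0.043 on the listed sum. Fits without a filter plus rescaling, or plus the block, were chosen after seeing the data, and YAP1 and NOTCH2 stayed called lower in all 3 knockdowns in both, while WWTR1 became called higher in the double knockdown in the first (0.18, adjusted p 0.043) and not in the second.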
